A study of Mus musculus with 3 samples.

Results

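The GIMAP family (GTPases of immunity-associated proteins) was described here in mouse activated regulatory T cells through its 8 mouse genes, Gimap1, Gimap3, Gimap4, Gimap5, Gimap6, Gimap7, Gimap8 and Gimap9, chosen by symbol and mapped to the gene table through GENCODE M21. They are 8 of 55536 genes in that table and 8 of its 22028 protein-coding genes. GENCODE M21 names 1 further gene whose symbol starts with Gimap, the non-coding Gimap1os, which is given beside them. The RNA-seq libraries of polyadenylated RNA came from primary cells of an adult male animal of 9 weeks, whose strain is written Foxp3GFP-DTRCD4CreERT2R26tdTomato and so carries a Foxp3 allele with green fluorescent protein and the diphtheria toxin receptor, a CD4-driven inducible Cre and a tdTomato reporter. All 3 libraries share this genotype and are technical replicates 1, 2 and 3 of 1 biological replicate, so there was 1 group, no resting or other population beside it, and no contrast between conditions. No treatment with an inducer of the Cre or with toxin is named in the labels. Nothing in the labels names separate cultures or animals, so every SD over libraries below covers library-to-library variation alone, which may be purely technical. The p-values set differences between libraries against counting error alone and hold no term for other variation between libraries.

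GIMAP proteins bind guanine nucleotides through a domain related to that of the septins and sit mostly on intracellular membranes. Their genes lie side by side in mammalian genomes and are transcribed mainly in lymphocytes. In mice and rats, loss of Gimap5 leaves animals short of peripheral T cells, and loss of Gimap1 in mouse lymphocytes depletes mature T and B cells, so the family is known chiefly for lymphocyte survival.

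The GTP-binding domain starts with the G1 motif or P-loop, a glycine, 4 residues of any kind, then glycine, lysine and serine or threonine, which holds the phosphates of the nucleotide. A search found that motif in the coding sequence of the leading transcript of every member. The coding bases of the motif with 3 codons on either side are printed because they are the sequence that the family shares. They come from the GENCODE M21 transcripts on mm10, on the coding strand from 5' to 3', with the codons of the first glycine and of the closing glycine, lysine and serine in capitals.
Gimap3, chr6:48765878-48765919, minus strand: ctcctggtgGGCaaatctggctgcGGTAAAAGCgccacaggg
Gimap5, chr6:48752585-48752626, plus strand: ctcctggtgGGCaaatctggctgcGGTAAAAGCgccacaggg
Gimap4, chr6:48690412-48690453, plus strand: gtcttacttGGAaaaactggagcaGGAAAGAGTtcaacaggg
Gimap6, chr6:48702741-48702782, minus strand: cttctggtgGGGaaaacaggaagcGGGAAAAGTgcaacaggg
Gimap7, chr6:48723515-48723556, plus strand: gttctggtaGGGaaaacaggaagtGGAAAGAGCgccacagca
Gimap9, chr6:48677514-48677555, plus strand: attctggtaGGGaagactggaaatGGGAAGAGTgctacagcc
Gimap1, chr6:48742543-48742584, plus strand: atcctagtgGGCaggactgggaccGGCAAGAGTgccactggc
Gimap8 copy 1, chr6:48650247-48650288, plus strand: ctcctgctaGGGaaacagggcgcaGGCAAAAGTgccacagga
Gimap8 copy 2, chr6:48656110-48656151, plus strand: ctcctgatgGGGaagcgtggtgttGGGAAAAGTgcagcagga
Gimap8 copy 3, chr6:48658737-48658778, plus strand: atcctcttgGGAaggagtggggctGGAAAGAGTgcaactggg
All lie within exons. At 17 of the 42 positions the 10 stretches had the same base. The stretches of Gimap3 and Gimap5 were identical throughout, the sole identical pair of 45, and the other pairs shared between 24 and 34 positions. Gimap8 is the only member printed with 3 copies, at residues 55, 291 and 482 of the 688-residue protein that its transcript Gimap8-202 encodes, whereas the other members' leading transcripts encode 291 to 328 residues and 1 copy.

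All 8 members were abundant. Each stood above 100 TPM, the deposited level scaled to transcript length and library size, and above the detection threshold of 1 TPM in every library. In the same libraries 10425 of 22028 protein-coding genes (47.3%) were detected, and 1784 (8.10%) averaged 100 TPM or more. The 8 genes summed to 6025, 5653 and 6055 TPM in replicates 1, 2 and 3, a mean of 5911 ± 224 TPM (SD, n = 3), or 0.594% of all gene TPM. Their estimated counts made up 0.642% (95% Wilson interval 0.638 to 0.645), 0.629% (0.626 to 0.633) and 0.652% (0.649 to 0.656) of the library, intervals that cover counting error only. The median member stood at 382 ± 13.6 TPM, against a median protein-coding gene at 0.81 TPM.

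Gimap3 and Gimap4 led the family. Gimap3, which encodes a membrane-anchored member, was at 1931, 1941 and 2014 TPM in replicates 1, 2 and 3 (1962 ± 45.1 TPM, SD, n = 3) and ranked 38 among protein-coding genes. Gimap4, a member linked to the timing of T cell death, was at 1734, 1528 and 1769 TPM (1677 ± 130) and ranked 45. Gimap3 exceeded Gimap4 in every library, by 1.17 ± 0.0844-fold, and the libraries' ranges did not overlap. Together these genes gave 61.6 ± 0.829% of the family's TPM.

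A middle pair followed. Gimap6, whose product binds autophagy proteins of the GABARAP family, was at 890, 826 and 922 TPM (879 ± 48.7, rank 122). Gimap7, whose human counterpart forms dimers that hydrolyse GTP, was at 500, 486 and 462 TPM (482 ± 19.3, rank 255). Each step from Gimap4 to Gimap6 to Gimap7 was close in size, 1.91 ± 0.0513-fold and 1.83 ± 0.154-fold, with no overlap of ranges.

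The remaining members lay within a narrower band. Gimap9, whose function is little characterised, was at 273, 263 and 285 TPM (274 ± 11.3, rank 542). Gimap1, needed for mature lymphocytes in the mouse, was at 295, 237 and 207 TPM (247 ± 44.9, rank 631), and Gimap5, required for peripheral T cell survival, was at 231, 200 and 226 TPM (219 ± 16.8, rank 718). The order of Gimap9 and Gimap1, and that of Gimap1 and Gimap5, differed between libraries, so these neighbours did not differ beyond their spread.

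Gimap8, the member with several GTP-binding domains, was lowest at 170, 172 and 171 TPM (171 ± 1.2, rank 965). It was below Gimap5 in every library, and Gimap3 stood 11.5 ± 0.269-fold above it. Even this lowest member was among the highest 4.38% of protein-coding genes. Its last place holds for the gene's TPM only. By CPM, counts scaled to library size and not to length, Gimap8 averaged 314 ± 8.10. That was above Gimap1 at 205, Gimap9 at 193 and Gimap5 at 176. The coding transcript of Gimap5, Gimap5-201, taken alone was at 110 ± 2.77 TPM, also below Gimap8.

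**Figure D1:**
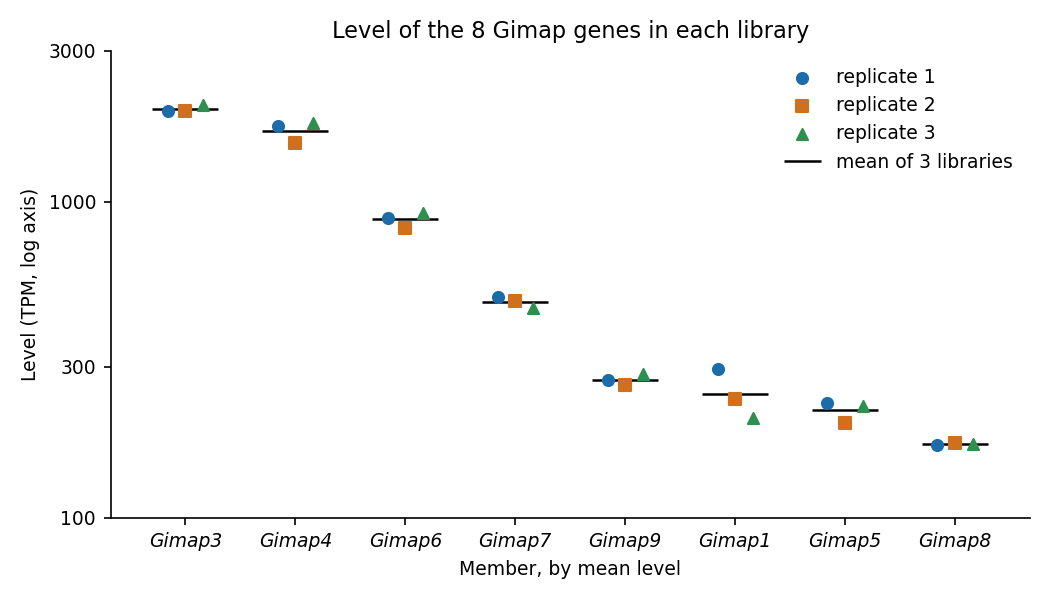
Level in TPM on a log axis for each member, with 1 point per library (replicates 1, 2 and 3) and a bar at the mean of 3 libraries. Gimap3 and Gimap4 sit above the other members in every library, Gimap8 sits near 171 TPM, and Gimap1 has the widest spread, with its points at 295, 237 and 207 TPM.

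The genes with the level profile nearest to that of Gimap3, by the largest difference in log2(TPM + 0.1) over the 3 libraries, were Laptm5 (0.06), a lysosomal membrane protein of lymphocytes, Ftl1 (0.11), the ferritin light chain, and Rps14 (0.14), a ribosomal protein. For the summed family the nearest was H2-D1 (0.06), an MHC class I heavy chain, at 5845, 5427 and 5861 TPM. The mitochondrial gene mt-Co3 (0.25) came next. This likeness is of level over 3 libraries of 1 biosample and describes nothing else.

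The 8 genes form 1 cluster on mouse chromosome 6, at chr6:48647234-48770851 of mm10, a span of 124 kb. In order along the chromosome, Gimap8 (ENSMUSG00000064262.7) lies at chr6:48647234-48660875, Gimap9 (ENSMUSG00000051124.6) at chr6:48676129-48679114 and Gimap4 (ENSMUSG00000054435.16) at chr6:48684549-48692060, all on the plus strand. Gimap6 (ENSMUSG00000047867.11) at chr6:48701582-48708225 is on the minus strand. Gimap7 (ENSMUSG00000043931.10) at chr6:48718621-48724636, Gimap1 (ENSMUSG00000090019.5) at chr6:48739054-48743795 and Gimap5 (ENSMUSG00000043505.8) at chr6:48746197-48754210 are again on the plus strand. Gimap3 (ENSMUSG00000039264.9) closes the cluster at chr6:48764464-48770851 on the minus strand. The highest members were not neighbours, since Gimap3 and Gimap4 lie with 4 other members between them.

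Outside the members, levels at this place were far lower. The 27 genes within 200 kb on either side, coding and non-coding, had a median of 0.04 TPM. Of them 9 were detected, against 8 of 8 members and 22.7% of all genes. The protein-coding ones had a median of 0.85 TPM, close to the 0.81 TPM of all protein-coding genes, of which 47.3% were detected. Of the 13 protein-coding ones, 6 were detected: Lrrc61 at 48.6 ± 1.21 TPM, Tmem176b at 10.9 ± 1.55, Tmem176a at 6.55 ± 0.956, Repin1 at 5.17 ± 0.741, Zfp775 at 3.52 ± 1.01 and AI854703 at 3.21 ± 0.223. The highest neighbour thus stood below the lowest member in every library.

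Within the span, Gimap1os, a processed transcript on the strand opposite Gimap1, was at 59.8, 51.5 and 59.9 TPM (57.1 ± 4.85). Gm28053, an annotated protein-coding gene whose span runs across Gimap7 and Gimap1 into Gimap5 on the same strand, was at 39.8, 26.3 and 39.7 TPM (35.3 ± 7.79). Of the other 3 genes there, Gm44226 averaged 10.7 TPM, 4833403J16Rik averaged 7.51 TPM and the pseudogene Gm44262 was listed at 0. The quantifier's uncertainty from dividing reads (deposited posterior SD) was equal for Gm44226 and 4833403J16Rik, which overlap on opposite strands. It was 5.52, 6.94 and 6.77 counts in replicates 1, 2 and 3. Lrrc61 and Rarres2, another such pair, both had 2.94, 3.93 and 3.5 counts, while Tmem176b and Tmem176a were listed at 0. Reads of the pairs above 0 were thus divided across strands. Gimap1 had 28.26, 27.73 and 25.31 counts and Gimap1os 27.97, 27.35 and 24.7. No strand setting is stated, and reads from Gimap1 and Gimap1os cannot be told apart where they overlap.

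**Figure D2:**
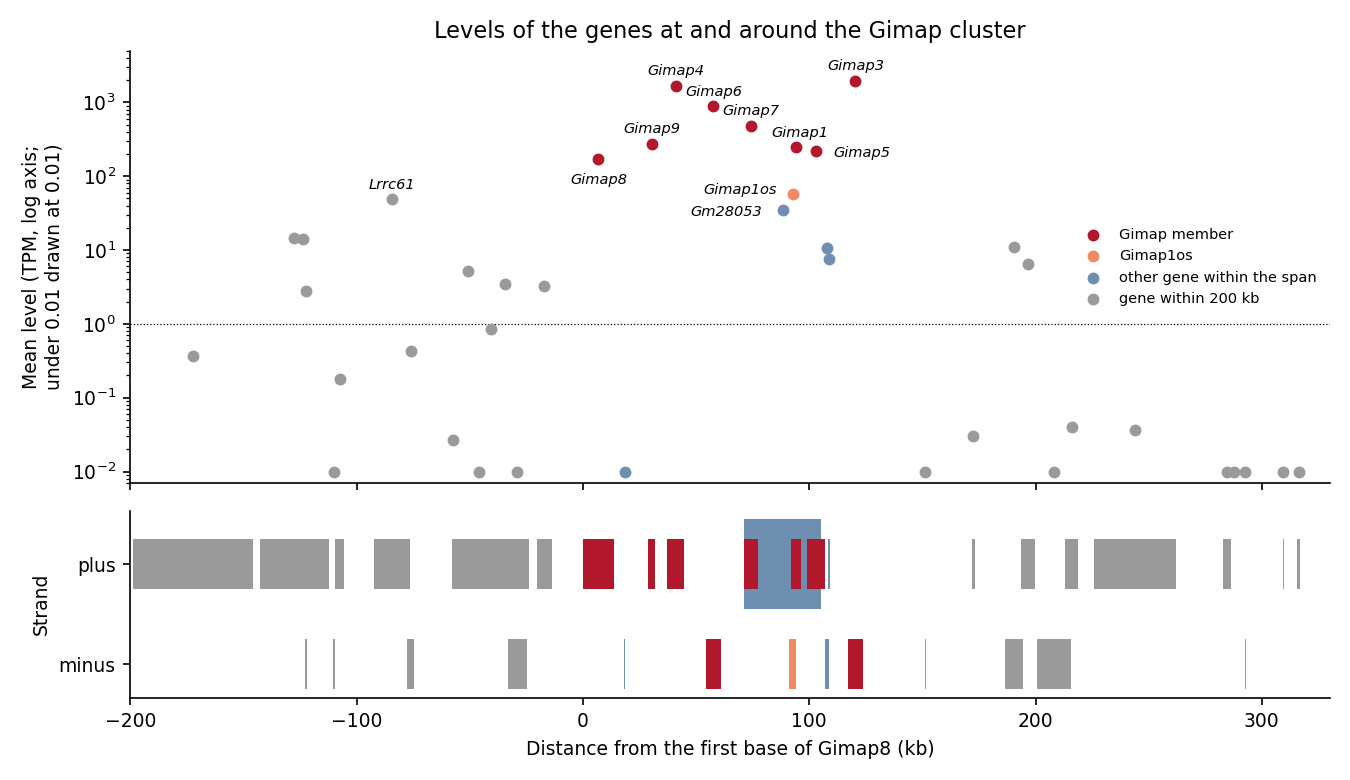
The upper panel gives the mean level in TPM (log axis) of each gene against its distance in kb from the first base of Gimap8, and the lower panel gives the extent of the same genes on each strand, with Gm28053 drawn taller. The 8 members all lie above 100 TPM, and Lrrc61, the highest gene of the flanks, lies at 48.6 TPM.

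Near-identical sequence is a limit for some members and not for others. Of all 50-base stretches in the transcripts of a gene, the length at which the files' effective lengths place the reads, 8.15% of those of Gimap3, 6.84% of those of Gimap5 and 5.94% of those of Gimap1 also occur in a transcript of another gene. The share was 1.39% for Gimap7, 0.0565% for Gimap6 and 0% for Gimap4, Gimap8 and Gimap9. A further 33.9% of the stretches of Gimap1 occur in antisense transcripts, chiefly Gimap1os.

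Gimap3 and Gimap5 had 92.2% identity of their coding sequences over 892 aligned bases, while the other pairs of members had 66.8% to 74.2% identity. Their longest common run has 140 bases, in exon 5 of Gimap3-202 and in exon 3 of Gimap5-201 (chr6:48752684-48752823, plus strand). It is printed because a read that lies wholly inside it fits both genes.
Gimap3, chr6:48765681-48765820, minus strand: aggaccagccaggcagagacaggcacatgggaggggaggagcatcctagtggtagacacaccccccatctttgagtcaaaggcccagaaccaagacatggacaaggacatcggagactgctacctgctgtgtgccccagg
In the tables, Gimap3 had 52198, 54876 and 48543 estimated counts and Gimap5 had 3712, 3688 and 3244, a ratio of 14.6 ± 0.498. The deposited posterior SD of the count, the quantifier's own uncertainty from dividing reads, averaged 0.0333% of the count for Gimap3, 0.521% for Gimap5 and 0.651% for Gimap1, and was listed at 0 for Gimap4, Gimap6, Gimap8 and Gimap9. At the level of the gene these values are small beside the differences between the members. For single transcripts of 5% or more they were larger, up to 34.2% of the count for Gimap8-203, 28.3% for Gimap1-201 and 15.9% for Gimap1-205, and the SDs of the shares below do not include them.

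The annotated transcripts of each member were read as shares of the gene's TPM, as estimated by the authors' quantifier. Of the 30 transcripts of the 8 genes, those with a mean share of 5% or more are named here. In Gimap7 and Gimap6 1 coding transcript prevailed, Gimap7-201 at 92.4 ± 0.606% and Gimap6-201 at 90.4 ± 1.00%. The rest was mainly Gimap7-202, a retained intron (7.24 ± 0.609%), and Gimap6-202 (8.27 ± 0.942%), whose 97-residue coding sequence holds no G1 motif.

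Gimap4 and Gimap3 each had a clear leading transcript. Gimap4-202, which encodes 328 residues, took 72.4 ± 2.24%, Gimap4-204, which encodes 58 residues, 14.7 ± 0.819%, and Gimap4-206, annotated as a target of nonsense-mediated decay, 7.94 ± 1.22%. Gimap3-202 took 71.3, 68.8 and 70.2% in replicates 1, 2 and 3 and Gimap3-201 the remaining 28.7, 31.2 and 29.8%. Both encode 301 residues, and Gimap3-201 starts 3893 bases further downstream. In Gimap9, Gimap9-201 took 67.2 ± 2.79% and Gimap9-202, annotated to start 1376 bases downstream of the RefSeq start, 32.8 ± 2.79%. The annotated coding sequence of Gimap9-202 has 138 residues and begins with ATC and not with ATG. By estimated counts Gimap9-202 took 18.3%.

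Gimap5 and Gimap1 carried the largest non-coding shares. Transcripts with no annotated coding sequence took 52.4, 43.2 and 52.2% of the TPM of Gimap5 (49.3 ± 5.25%), mainly the short processed transcripts Gimap5-202 (31.6 ± 2.59%) and Gimap5-203 (14.2 ± 2.29%), while the coding Gimap5-201 took 50.7 ± 5.25%. By estimated counts, which do not divide by length, Gimap5-201 took 76.8% instead. In Gimap1, the coding transcripts Gimap1-205 and Gimap1-201, both of 300 residues, took 39.9 ± 4.76% and 22 ± 4.85%. The retained introns Gimap1-204 (16.5 ± 1.35%), Gimap1-206 (11.0 ± 1.92%) and Gimap1-203 (6.77 ± 0.371%) together took 34.3 ± 2.96%. By estimated counts they took 19.9%, 7.66% and 2.50%. Gimap1-206 lies wholly within the span of Gimap1os on the opposite strand, so its share rests on how the reads there were divided.

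Gimap8 was divided between transcripts that encode proteins of different build. Transcripts with 3 G1 motif copies, Gimap8-202 and Gimap8-203, took 48.9, 53.2 and 52.5% in replicates 1, 2 and 3 (51.6 ± 2.30%). Singly, Gimap8-202 took 45.05, 40.02 and 40.93% and Gimap8-203 took 3.89, 13.22 and 11.56%. Gimap8-201, which encodes 349 residues with the first copy alone, took 51.1, 46.8 and 47.5% (48.4 ± 2.30%). The order of these classes differed between libraries, so neither exceeded the other beyond the spread, and by estimated counts the class with 3 copies took 47.4%.

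**Figure D3:**
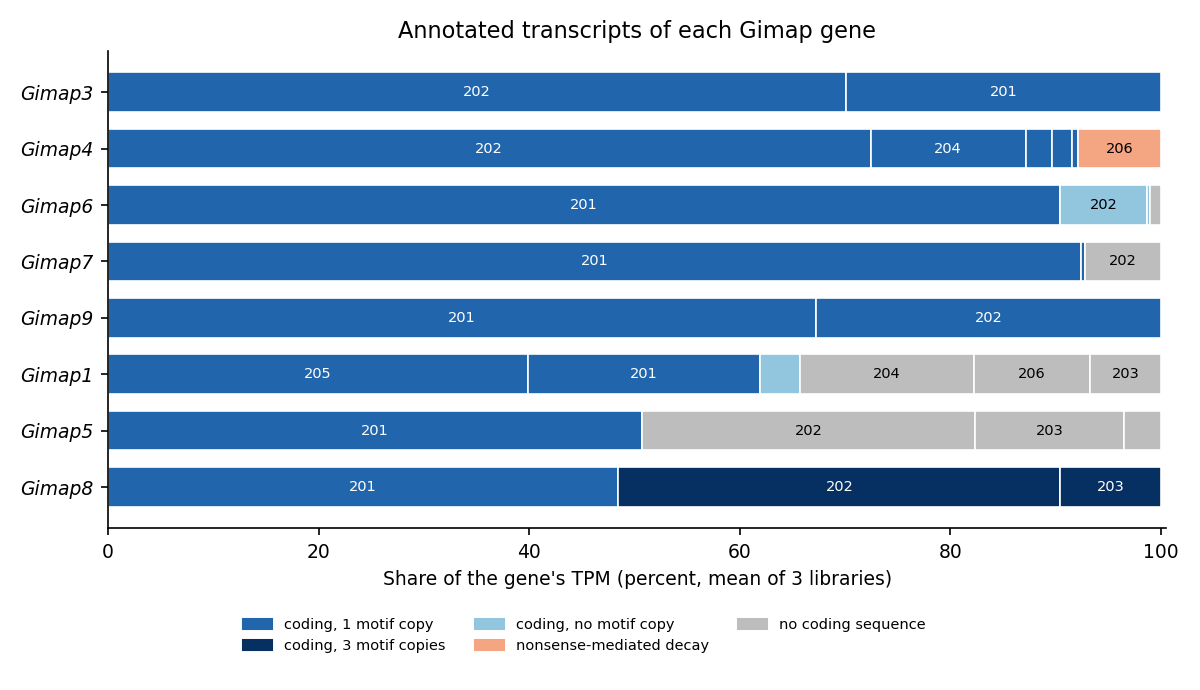
Mean share of the gene's TPM (percent, 3 libraries) for each annotated transcript, 1 bar per member, coloured by coding class and number of G1 motif copies, with the transcript numbers written where the share is 5% or more. Gimap6 and Gimap7 are over 90% 1 coding transcript, Gimap5 is 49.3% and Gimap1 34.3% non-coding, and Gimap8 is split at 51.6% and 48.4%.

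The spread between the libraries was then tested gene by gene, which asks whether a gene took the same share of each library. Reads are taken as independent counts with Poisson variation, so a small p-value reflects depth as well as the size of a difference. Pearson's chi-square test with Benjamini-Hochberg adjustment over 14641 genes called 6 of 8 members at an adjusted p below 0.05. The same test called 44.9% of all genes tested and 66.5% of the 4457 genes with a mean count of 1000 or more, as all members have, so the members' share was close to that of genes of their depth. The ratio of highest to lowest CPM, counts scaled to library size, had a median of 1.07 over the members and 1.11 over those deep genes.

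Gimap1 stood apart from the other members. It took 245, 199 and 171 CPM in replicates 1, 2 and 3, a ratio of 1.43 (adjusted p = 3.15e-56, chi-square test), and 96.6% of the deep genes had a smaller ratio. It was highest in replicate 1 and lowest in replicate 3 under library totals, TMM factors and DESeq2 size factors alike. In TPM Gimap1 had the same order (295, 237 and 207), while Gimap1os, on the opposite strand, did not (59.8, 51.5 and 59.9). Reads where these genes overlap were divided between them, so their values are not independent. The summed TPM of the activated T cell markers (2618, 2488 and 2390) and of the regulatory T cell markers (3072, 2955 and 2824) were also highest in replicate 1 and lowest in replicate 3, but singly 2 of the 6 activation markers and 1 of the 7 regulatory markers had that order. The list medians did not have it either (345, 298 and 328 TPM for activation markers, and 369, 382 and 316 TPM for regulatory markers). That order also held for 2 of the 8 members and for 5 of the 12 RAS-like small GTPases described below. The share of all genes with that order was not counted, but 28.4% of the deep genes were highest in replicate 1 by CPM. The part of these markers in the result was not tested.

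By CPM the other members varied by at most 1.11-fold. In TPM, Gimap4 and Gimap5 each varied by 1.16-fold and Gimap6 by 1.12-fold. Gimap4 (1674, 1539 and 1706 CPM, adjusted p = 3.15e-41), Gimap6 (930, 899 and 983 CPM, adjusted p = 3.68e-16) and Gimap3 (2511, 2588 and 2624 CPM, adjusted p = 8.14e-11) were highest in replicate 3, by the same chi-square test. Gimap7 had 381, 380 and 352 CPM (adjusted p = 4.43e-06) and was lowest in replicate 3 under every scaling, while its highest library was replicate 1 by totals and replicate 2 by TMM or DESeq2 factors. Gimap8 passed narrowly (307, 323 and 313 CPM, adjusted p = 0.0307). Gimap9 (190, 192 and 197 CPM, adjusted p = 0.373) and Gimap5 (179, 174 and 175 CPM, adjusted p = 0.604) did not pass.

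Several of these smaller differences rested on 1 library. Without replicate 1 the adjusted p of Gimap3 was 0.0714 and that of Gimap8 was 0.153, and without replicate 2 that of Gimap8 was 0.523, in the same chi-square test. Gimap4 lost its call without replicate 2 (adjusted p = 0.0539) and Gimap7 without replicate 3 (adjusted p = 0.911). Gimap1 and Gimap6 kept theirs whichever library was left out.

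**Figure D4:**
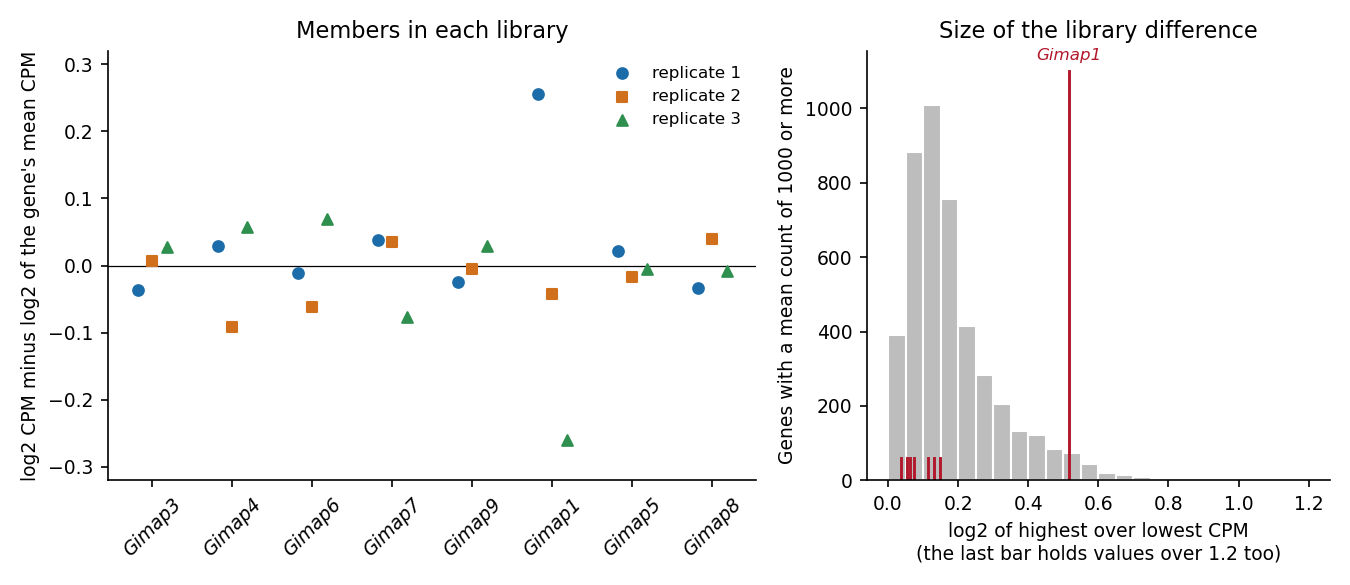
The left panel gives, for each member and library, log2 CPM minus log2 of the gene's mean CPM, and the right panel the number of genes with a mean count of 1000 or more by the log2 ratio of highest to lowest CPM, with short red marks at the members and a long one at Gimap1. Gimap1 covers 0.26 above to 0.26 below its mean, and the other members stay within 0.1 of theirs.

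Genes that work beside the GIMAP proteins, or resemble them, were read in the same way. Of 12 genes linked to GIMAP proteins in earlier work, all were detected, with a median of 53.3 ± 1.54 TPM, below every member. The highest were Gabarap at 403 ± 0.529 TPM, Map1lc3b at 322 ± 17.5 and Gabarapl2 at 279 ± 8.60, ubiquitin-like proteins of the autophagosome, and the lowest were Gsk3b, a kinase, at 8.37 ± 1.5 and Map1lc3a at 1.56 ± 0.275. The library test called 5 of these 12, where it called 44.9% of all genes tested.

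The septins, the filament-forming relatives of the family, were divided. Of 13 septin genes 6 were detected, Sept1 at 413 ± 23.0 TPM, Sept7 at 344 ± 17.6 and Sept9 at 312 ± 17.2 leading, and the list's median was 1.77 ± 0.721 TPM with Sept12 at 0.0533 ± 0.0473 and Sept14 at 0.0167 ± 0.0289. Unlike the GIMAP genes, the septins were thus detected only in part. All 14 interferon-inducible GTPases were detected at a median of 143 ± 5.22 TPM, from Igtp at 504 ± 14.5, Gbp4 at 320 ± 26.6 and Gbp6 at 260 ± 6.86 to Mx1 at 11.2 ± 1.69 and Mx2 at 2.93 ± 1.31. All 12 RAS-like small GTPases were detected at a median of 63.4 ± 8.85 TPM, and Rac2, a regulator of the actin cytoskeleton in blood cells, at 2867 ± 112 TPM was the only gene of these GTPase lists above Gimap3. Cdc42 at 834 ± 46.1 and Rhoh at 403 ± 20.5 followed, and Arl4c at 4.98 ± 0.896 and Hras at 2.72 ± 0.919 closed that list.

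Genes of T cell quiescence and survival, among which the family is often placed, had a median of 167 ± 6.56 TPM, with 16 of 16 detected. Slfn2, a factor that keeps T cells quiescent, was at 533 ± 41.5 TPM and Ccr7, a lymph node homing chemokine receptor, at 310 ± 15.4. Klf2, a transcription factor of resting T cells, was at 9.76 ± 0.612 TPM and Tob1, an inhibitor of proliferation, at 3.86 ± 0.493. The library test called 10 of these 16, 6 of the 9 septins it could test, 8 of 14 interferon-inducible GTPases and 9 of 12 RAS-like genes, where it called 44.9% of all genes tested and 66.5% of deep ones.

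The label of the cells was read against markers. The 8 T cell markers had a median of 1251 ± 53.8 TPM and the 7 regulatory T cell markers one of 356 ± 35.2 TPM, all of them detected. Endothelial cells, which also express GIMAP genes, had 0 of 10 markers detected, 1 of them at 0 in all libraries, with a summed level of 1.39 to 1.47 TPM. NK cell markers summed to 3.65 to 4.59 TPM (2 of 6 detected), CD8 T cell markers to 18.5 to 24.3 TPM (1 of 2), and B cell markers to 63.3 to 72.8 TPM (5 of 8). Myeloid markers summed to 176 to 189 TPM (5 of 8 detected, 1 at 0) and erythroid markers to 910 to 1272 TPM (6 of 6). The myeloid sum came mostly from Cst3, at 157, 154 and 152 TPM in replicates 1, 2 and 3. The median was 2.27 ± 0.754 TPM for the myeloid list and 1.985 ± 0.796 TPM for the B cell list, so the sums do not rank these cell types. The part of all these other cells in the levels of the members was not tested. In bulk RNA, fewer cells of a type and less RNA per cell cannot be told apart.

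Promoters of 300 bases, 250 before to 50 after the start, were matched in RefSeq for all 8 members, 9 in number because Gimap8 has a pair of starts. The Gimap8 windows overlap (chr6:48646984-48647283 and chr6:48647111-48647410), so a site in the common part counts for both. Motifs of lymphocyte factors were searched on both strands. The ETS core, GGAAG, was in 9 of 9, against 71.4% of all 32851 promoters of that length, and the RUNX motif, TGTGGT, was in those of Gimap1, Gimap4 and Gimap7, 3 of 9, against 16.8%. A KLF-type motif, CACCC, was in 6 (57.5% of all promoters), the TCF-1/LEF-1 motif CTTTGA in 2 (16%), the forkhead motif TGTTTA in 2 (13.4%), TATAAA in 1 (13.6%) and the AP-1 motif TGANTCA in 0 (7.81%). Counted by member, the ETS core was in 8 of 8 and the KLF-type motif in 5 of 8. Overlaps between motifs were not removed. The promoters of Gimap3 and Gimap4 are printed because these genes gave most of the family's TPM and both have a leading transcript that starts within 4 bases of the RefSeq start. Capitals mark GGAAG and TGTGGT on either strand, and the sequences are from RefSeq on GRCm38.p6, on the gene's strand.
Gimap3 promoter, chr6:48770802-48771101, minus strand: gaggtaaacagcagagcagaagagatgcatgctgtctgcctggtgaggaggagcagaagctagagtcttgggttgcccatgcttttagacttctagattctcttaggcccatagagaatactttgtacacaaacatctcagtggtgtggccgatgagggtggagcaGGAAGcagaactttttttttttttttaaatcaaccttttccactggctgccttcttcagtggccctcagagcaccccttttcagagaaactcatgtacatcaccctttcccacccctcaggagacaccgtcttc
Gimap4 promoter, chr6:48684328-48684627, plus strand: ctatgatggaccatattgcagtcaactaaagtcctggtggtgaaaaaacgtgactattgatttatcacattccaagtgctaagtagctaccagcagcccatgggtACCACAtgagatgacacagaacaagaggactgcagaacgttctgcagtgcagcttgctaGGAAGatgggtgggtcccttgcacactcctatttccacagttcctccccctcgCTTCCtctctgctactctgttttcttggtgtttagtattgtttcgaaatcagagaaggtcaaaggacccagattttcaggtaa
Gimap4 holds the RUNX motif 145 bases before its start, and Gimap3 holds none in this window. These matches are a description of letters, and binding was not measured.

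A second, smaller deposited table holds whole-number counts for 22457 genes, and the family looked different in it. Gimap3 had 1604, 1612 and 1606 counts there, 3.11% of its estimated count in the larger table. Gimap8 had 2564, 2634 and 2424 counts, 40.2% of its estimated count, and led the family in that table. In between, the share was 6.80% for Gimap4, 10.1% for Gimap6, 22.3% for Gimap7, 24.7% for Gimap5, 29.9% for Gimap1 and 36.1% for Gimap9.

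The members' counts thus spanned 2.90-fold in the smaller table and 14.6-fold in the larger one. The whole smaller table held 30.3, 29.3 and 31.1% of the larger one's counts. Over all genes in both tables the median share was lower in bins of higher count, at 48.7% for genes of 300 to 3000 counts, 31.0% for 3000 to 30000 and 2.96% for 30000 or more. For Gimap3 the 3 libraries had an SD of 4.16 counts, where independent counts of that size have a Poisson SD of 40.1. The SD was below the Poisson SD for Gimap4 (8.50 against 47.3), Gimap6 (13.1 against 43.6), Gimap7 (28.8 against 40.7) and Gimap5 (15.3 against 29.6) as well. It was above the Poisson SD for Gimap8 (107 against 50.4), Gimap1 (138 against 34.9) and Gimap9 (41.0 against 37.5). These SDs are of counts not scaled to library size, and the smaller table's totals were 6288764, 6209287 and 5746072 in replicates 1, 2 and 3. They include differences in depth, so a value above the Poisson SD is not by itself variation beyond counting error.

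Gimap1 was again highest in replicate 1 and lowest in replicate 3 in the smaller table, at 215, 198 and 188 CPM (adjusted p = 0.0164, chi-square test, the largest over all alternatives run). The test takes Poisson variation, which several members' counts in this table did not have, so its calls here cannot decide whether a member differed. How the smaller table was counted, and whether repeated reads were removed, is not given in the sources used here, and the cause of the difference was not tested. Levels in the rest of the text come from the larger table.

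**Figure D5:**
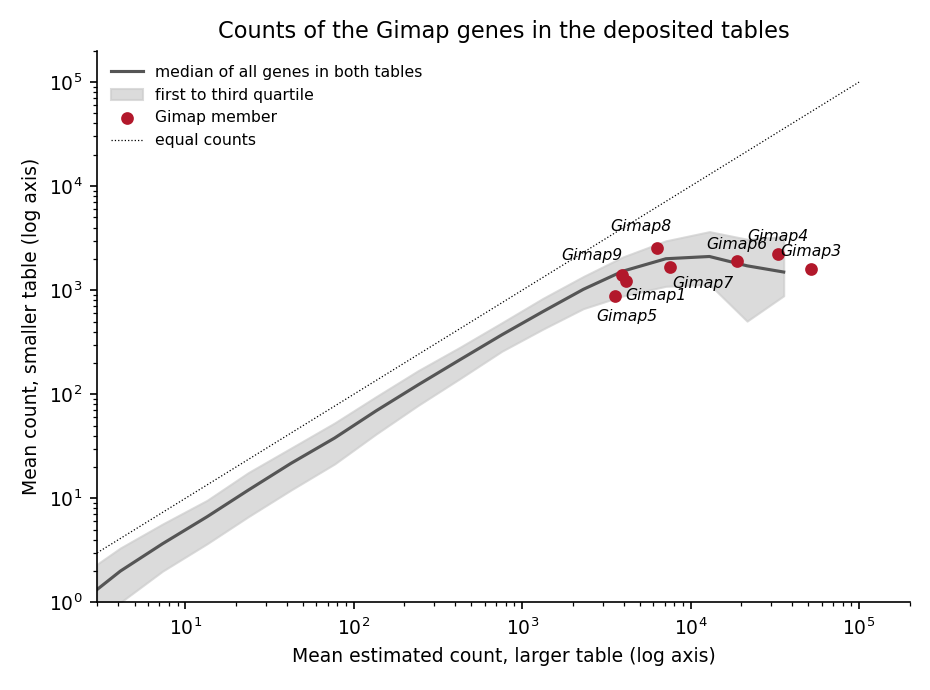
Mean count in the smaller table against mean estimated count in the larger table, both on log axes, with red points for the members, a line and band for the median and quartiles of all genes in both tables, and a dotted line at equal counts. The members run nearly level at 875 to 2541 counts while their estimated counts span 14.6-fold, and the line for all genes levels off over the same range.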

How the data were processed

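Polyadenylated RNA of 1 biosample was sheared and sequenced as 3 technical replicates, per the labels. For each library the authors deposited RSEM-style tables of genes and of transcripts, made on mm10 with GENCODE M21, per the file headers and the submitters' processing notes. The deposited estimated counts (expected counts) divide shared reads among genes, the deposited TPM and FPKM values are scaled to length and depth, and a deposited percent column gives each transcript's share of its gene. The deposited posterior SD is a score of the uncertainty in those counts. The authors also deposited a smaller table of whole-number counts for GENCODE M4, and CPM was computed here. Which aligner, strand setting and version of the quantifier were used is not given in the sources used here.

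Rows naming no gene (0.189 to 0.271% of counts) were left out. Replicates 1, 2 and 3 held 20783676, 21206219 and 18496690 estimated counts. A count of 0 allows up to 3 counts, or 0.144, 0.141 and 0.162 CPM in those libraries. The library test was Pearson's chi-square (2 degrees of freedom) of rounded estimated counts against library totals, run where the 3 counts summed to 30 or more and tested on simulated counts. Alternatives were FPKM, other thresholds and filters, TMM (edgeR 4.0.16) and DESeq2 1.42.0 size factors, a deviance statistic, estimated count shares, list means, the smaller table and leaving out each library. Protein identity was not run, and coding sequences were aligned globally with Biopython 1.88 instead.

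Named were all members, transcripts with a mean share of 5% or more, detected protein-coding genes within 200 kb, the 3 highest and 2 lowest genes of each list, and the 3 genes nearest in level. Gm28053, Gm44226, 4833403J16Rik and Gm44262 were named after their values were seen. A few genes falling under this rule are not reported here, though counts and medians include them. The members and lists were chosen with earlier results of these data known. Analyses ran in Python 3.11.15 with scipy 1.17.1, numpy 2.4.6, statsmodels 0.14.6, pandas 2.3.3 and matplotlib 3.10.9, and in R 4.3.3.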

Additional observations from a re-analysis of the deposited data

How the results depend on the processing

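The levels and the family's sum stayed within the spread under rescaled FPKM and without each library, and 8 members passed 5 and 10 TPM. Of 7 neighbouring pairs in the order of the members, 5 kept their order in all libraries, and 4 to 6 did so under the alternatives. These were not always the same pairs. In the smaller table Gimap8 led at a mean of 418 CPM, and Gimap4 (369 CPM) stood above Gimap3 (265 CPM). By CPM of the larger table Gimap8 (314) stood above Gimap5 (176). The first and last places by TPM thus depend on the measure. The median of the members was above that of 13 of the 14 other lists under every alternative run, the T cell markers being the exception. Against the regulatory T cell markers that order did not hold in every library (374 against 382 TPM in replicate 2). The count of genes that differed between libraries was 2520 in the smaller table, against 6575 in the main test, and 3782 (without replicate 2) to 4701 (without replicate 3), with 4157 without replicate 1. The members called fell to 2 of 8 in the smaller table, where 23.2% of 10885 genes were called, and were 4 of 8 without replicate 1 (30.3% of all genes tested), 4 of 8 without replicate 2 (27.7%) and 5 of 8 without replicate 3 (34%). The test takes counts to vary as Poisson counts do. In the smaller table several members varied less, as Gimap3 did (SD 4.16 against a Poisson SD of 40.1). Calls kept or lost there therefore cannot decide whether a member differed. For single members, 10 calls were lost across all alternatives and none was gained. Gimap8 lost its call with no count filter, in the smaller table and without replicate 1 or 2. Gimap3 lost it in the smaller table and without replicate 1, Gimap4 without replicate 2, Gimap6 in the smaller table, and Gimap7 in the smaller table and without replicate 3. Gimap1 kept its call under every alternative run, with adjusted p between 2.58e-56 and 0.0164. The median rank of the members among all genes was 844.5 in the smaller table against 459.5 by TPM, and the median share of the leading transcripts was 79.2% by estimated counts against 68.7% by TPM, since counts are not divided by length. The cause of the smaller table's differences was not tested. No paired analysis was possible because there is 1 group. The planned protein identity and its alternative were not run, as protein sequences were not used here.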
